A study of Arabidopsis thaliana with 18 samples.

Results

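The comparison set 3 WT libraries from seeds held for 48 h in the cold from 11 days after pollination (DAP) against 3 WT libraries from seeds of the same age, 13 DAP, that had stayed at 22 °C. These are 6 of the 18 libraries of the study, chosen because their labels give the same age in days and a different temperature over the last 48 h. Each library held messenger RNA of seed coats and endosperms dissected from developing *Arabidopsis thaliana* seeds of ecotype Col, pooled over tagged siliques of several plants. The 3 WT libraries taken at 11 DAP, on the day of transfer, gave the starting level, so that a gene could be placed against the course of development from 11 to 13 DAP in the warm. The sources differ on the temperature of the cold chamber, which the sample labels put at 13 °C. The chamber also had a lower humidity, so temperature and humidity cannot be told apart. Other libraries were of WT after 6 h in the cold, and of *myb107-2*, a mutant of the MYB transcription factor MYB107. The mutant was read at 11 DAP and after 48 h in the cold. These libraries are given beside *KIN2*, beside genes outside the warm range and in counts for some gene classes. No source says that replicates came from separate sets of plants, so the p-values measure the spread between these libraries, which may be partly technical.

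Between 11 and 13 DAP the *Arabidopsis* seed is already in early maturation: storage proteins and oil body proteins are being laid down and cell division ends. The seed coat leaves its phase of flavonoid and mucilage production. The outer integument then builds a barrier of suberin, a polyester of fatty acids and glycerol, together with lignin-like polymers made from monolignols. Cold slows plant growth in general and also acts through its own regulators, such as the CBF factors and their cold-regulated (COR) targets. A seed cooled for 48 h may therefore differ from a warm seed of equal age both in genes that move with age and in genes that do not.

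The 9 libraries of WT 11 DAP, 48 h cold and 13 DAP held between 43141064 and 84027379 estimated counts. The floor used below, 3 counts in a library, corresponded to 0.0342 to 0.0959 CPM (counts relative to library size, scaled with the TMM method). WT 13 DAP replicate 1 held 46.99% of its counts in ribosomal RNA units, against 6.132% to 16.387% in the other 8, and its 3-count limit was the highest of the 9. Seed coat markers were present throughout, with a summed level of 3710 to 4030 CPM at 11 DAP, 1170 to 2310 CPM in 48 h cold and 1200 to 1960 CPM at 13 DAP. The endosperm markers were mostly *EPR1* (13300 to 21300 CPM in 48 h cold and 25300 to 29000 CPM at 13 DAP), with *PHE1*, *FWA*, *FIS2* and *AGL62* at 1.45 CPM or less in every library. Of 9 embryo markers, *SCR* alone exceeded 2 CPM, at 10.2 to 18.6 CPM in 48 h cold and 18.4 to 26.0 CPM at 13 DAP. Fewer cells of a type and less RNA per cell cannot be told apart in these pooled tissues.

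After 48 h in the cold the tissue differed from the warm 13 DAP tissue in 2080 of 26245 genes tested (7.93%), 1005 of them higher (3.83%) and 1075 lower (4.1%) in 48 h cold. A gene was called with edgeR's quasi-likelihood test where its Benjamini-Hochberg adjusted p was at most 0.05 and its log2 fold change at least 1 in size, and log2 values below are 48 h cold minus 13 DAP unless another pair is named. The median log2 fold change of all genes was 0. In the same fit, 1369 genes (5.22%) were called higher and 1449 (5.52%) lower at 13 than at 11 DAP, while 735 (2.8%) were called higher and 841 (3.2%) lower in 48 h cold than at 11 DAP. These 3 comparisons share libraries, so their calls are not independent, and the classes below are counts of calls without a further test.

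Most of the called genes lay on the side of the 13 DAP level that 11 DAP seeds also lay on. A gene was termed behind when it was called between 11 and 13 DAP and the cold level had not reached that of 13 DAP, and 1283 genes (61.7% of the 2080) were behind. Of these, 714 rose with age and were lower in 48 h cold, with a median log2 fold change of -2.13, and 569 fell with age and were higher, with a median of 1.84. A gene was termed outside when the cold level was called beyond both the 11 and the 13 DAP level on the same side, which held for 275 genes (13.2%), 156 above and 119 below. The other 522 genes (25.1%) were unresolved, since their cold level was called against 13 DAP but neither the age change nor the difference from 11 DAP was called on the side required. Among the 1283 behind genes, 276 were partway, meaning also called from 11 DAP in the direction of age, and 1007 were not called from 11 DAP. For these 1007, the 13 DAP level was called from both other groups, which were not called apart. Behind names a position against the warm levels and not a cause. Whether slower development or another trait of the 13 DAP libraries, such as the hour of harvest, set them apart was not tested.

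**Figure D1:**
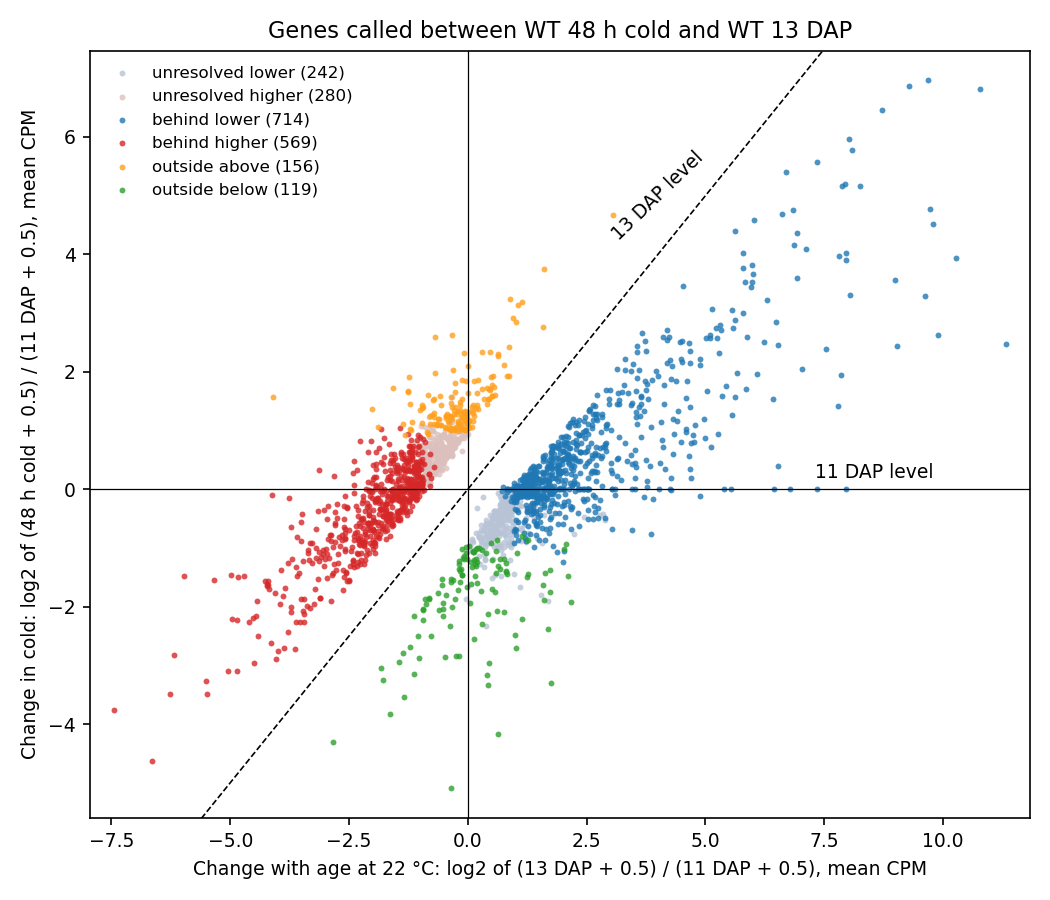
Each point is a gene called between WT 48 h cold and WT 13 DAP; the x axis is the log2 change from 11 to 13 DAP in the warm and the y axis the log2 change from 11 DAP to 48 h cold, both from group mean CPM after adding 0.5. Points on the solid horizontal line stayed at the 11 DAP level and points on the dashed line would have reached the 13 DAP level. The 714 and 569 behind genes lie between or around the horizontal line and the dashed line, and the 156 and 119 outside genes lie beyond both.

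Read from the warm course of development, 727 of the 1369 genes that rose with age were still called lower in 48 h cold than at 13 DAP, 5 had been called past the 13 DAP level and 637 were not called. These 727 hold the 714 behind genes and 13 outside below genes. Of the 1449 genes that fell with age, 588 were still called higher in the cold, 8 had been called past the 13 DAP level and 853 were not called. The cold change as a share of the warm change had a median of 0.425 over the rising and 0.416 over the falling genes. The middle part of the rising genes, from the lower to the upper quartile, spanned shares of 0.117 to 0.684. The share was below 0 in 196 of the 1369 rising genes and above 1 in 80. This spread includes the error of both changes, and whether genes differed in their share was not tested.

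**Figure D2:**
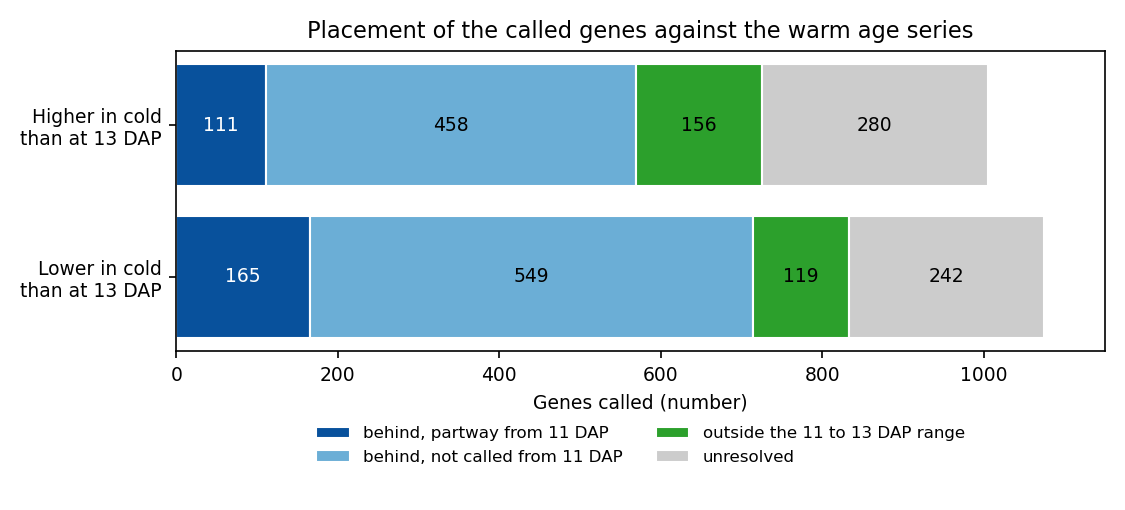
Bars give the number of genes called lower (bottom) and higher (top) in WT 48 h cold than at 13 DAP, divided by their place against the 11 to 13 DAP range. Of 1075 lower genes, 165 were partway, 549 not called from 11 DAP, 119 outside and 242 unresolved; of 1005 higher genes, the numbers were 111, 458, 156 and 280.

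Leaving out 1 library moved 2 classes and the unresolved genes by over 1.5 times. The outside above genes numbered 100 without WT 11 DAP replicate 2, and the outside below genes 64 without 48 h cold replicate 2. Unresolved lower genes numbered 155 without that cold library and 161 without WT 13 DAP replicate 3, and unresolved higher genes 180 without WT 13 DAP replicate 3.

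Gene lists of seed coat and endosperm processes were read against these classes, and the share of members called is to be set against 3.83% higher and 4.1% lower over all genes. The lists that stood furthest from those shares were the storage and oil body proteins (13 of 15 lower), the suberin and lignified barrier genes (12 of 22 lower), the phenylpropanoid enzymes (10 of 19 lower) and the flavonoid genes (7 of 18 higher). Chlorophyll breakdown, fatty acid desaturases, cold shock domain proteins and seed coat cell death proteases had 0 members called by edgeR or DESeq2 between 48 h cold and 13 DAP. An unadjusted edgeR p under 0.05 was reached by 0 of 7, 6 of 10, 1 of 6 and 7 of 12 of their members.

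**Figure D3:**
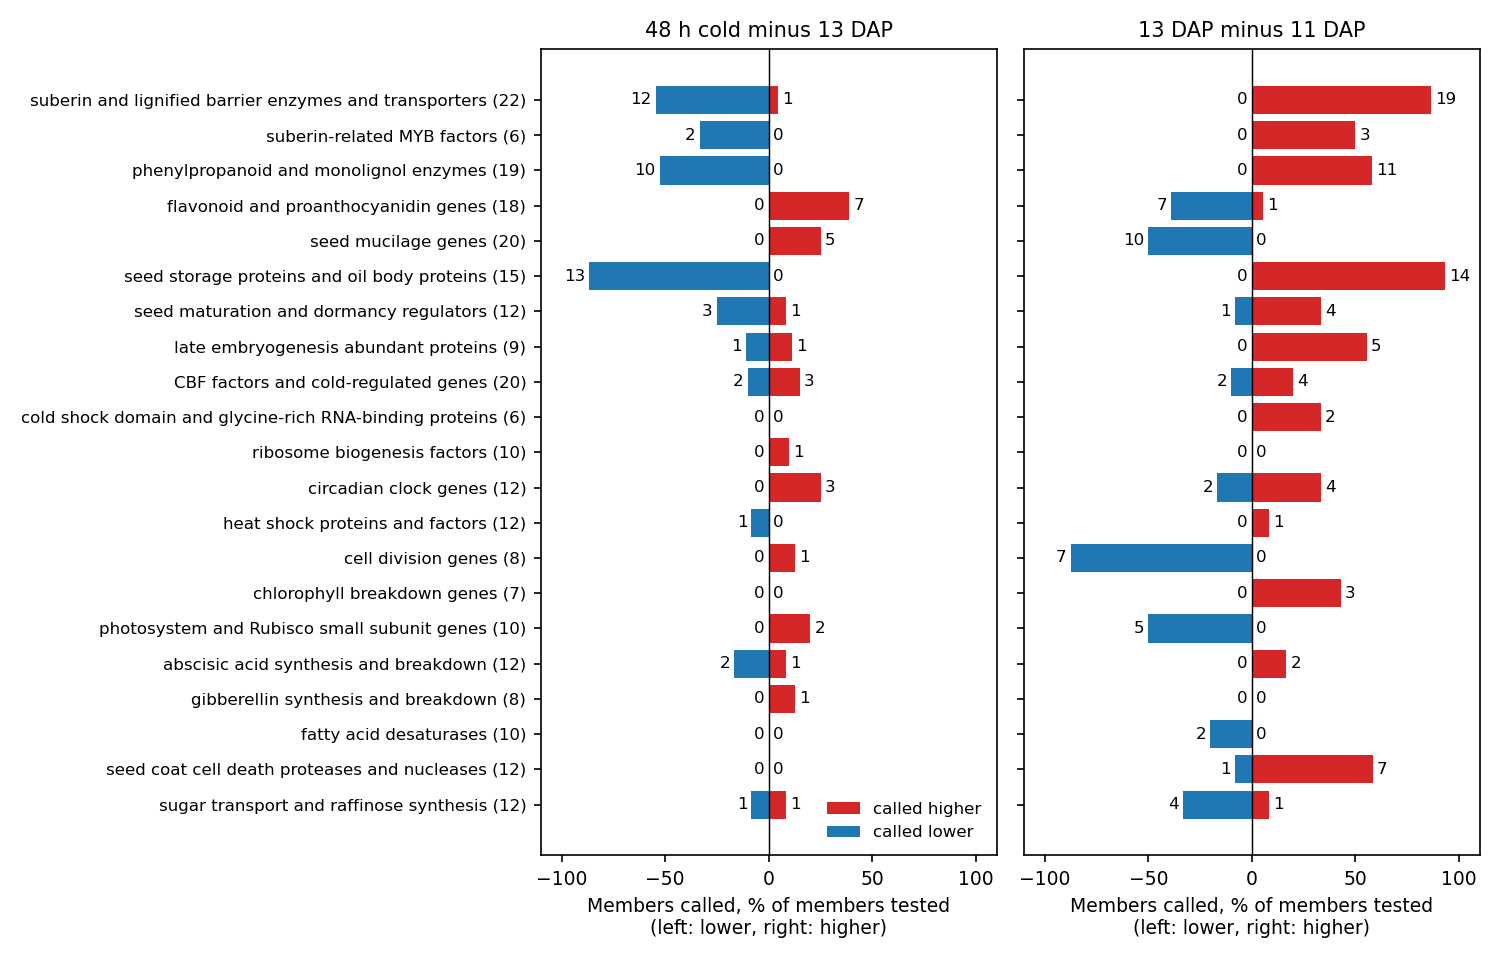
Bars give the percentage of tested members of each gene list called higher (right) or lower (left), with the number of members called at the bar end and the number tested in parentheses; the left panel is WT 48 h cold minus 13 DAP and the right panel WT 13 DAP minus 11 DAP. The 12 barrier, 10 phenylpropanoid and 13 storage genes called lower in the cold have their bars on the opposite side with age, where 19, 11 and 14 members were called higher. Over all genes tested, 5.22% were called higher with age.

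Several named genes overlap another annotated gene: *ASFT*, *FAR1*, *FAR4*, *ABCG2*, *MYB9*, *4CL1*, *CYP98A3*, *CCR2*, *TT4*, *GSTF12*, *OLEO1*, *OLEO2*, *RAB18*, *BAM3*, *MUM4*, *CCR1*, *FWA*, *FIS2*, *LUX*, *FKF1*, *AAO3*, *KN*, *RGP3*, *AT2G47200*, *AT3G60730*, *AT1G78060* and *ACL5* on the other strand, and *MYB53* and *FIB2* on the same strand. The library kit keeps the strand, and whether counting used it is not given in the sources used here, so reads of such partners may be mixed.

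Suberin genes differed in how far they had risen after 48 h in the cold. Of 22 enzymes and transporters of suberin and of the lignified barrier, 19 were called higher at 13 than at 11 DAP (background 5.22%) and 15 higher in 48 h cold than at 11 DAP (background 2.8%). In 48 h cold 12 were lower than at 13 DAP, all of them behind, 8 partway and 4 not called from 11 DAP. *GPAT5*, the glycerol acyltransferase that joins suberin fatty acids to glycerol, stood at 0.377, 0 and 0.339 CPM at 11 DAP, at 20, 11.2 and 46.9 CPM in 48 h cold and at 154, 167 and 198 CPM at 13 DAP. The 3 cold libraries lay between the other groups without overlap, and the log2 fold change was -2.75 (SE 0.45, adjusted p = 0.00054). *CYP86B1*, which hydroxylates very long chain fatty acids, held 28.5, 26.7 and 58.1 CPM, then 165, 99.5 and 225 CPM in the cold, against 563, 749 and 935 CPM at 13 DAP, a log2 fold change of -2.20 (SE 0.34, adjusted p = 0.00071). *CYP86A1*, the hydroxylase of shorter suberin acids, was further behind: listed at 0 in all 11 DAP libraries, it reached 0.629, 1.77 and 13.7 CPM in the cold and 236, 254 and 275 CPM at 13 DAP (log2 fold change -5.67, SE 0.88, adjusted p = 0.0023). The cold replicates of this gene differed among themselves more than those of *CYP86B1*, with replicate 3 highest in each of these genes. Replicate 3, the shallowest cold library, was also highest for *MYB9*, *DOG1*, *KIN1* and *KIN2*, described below, though not for every behind gene, such as *RAB18*. Whether this library lay nearer to 13 DAP in general was not tested.

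The genes for fatty alcohols and for feruloyl esters, both suberin parts, divided by how far they had come. *FAR4*, a fatty acyl reductase that makes primary alcohols of suberin, was listed at 0 in all 11 DAP and all 48 h cold libraries and held 47.8, 41.9 and 73.7 CPM at 13 DAP. This makes it at least 825-fold lower in the cold against 3 counts in the shallowest cold library. Its relatives *FAR5* (2.30, 0.809 and 4.49 CPM in the cold, 26.7, 24.4 and 35.9 CPM at 13 DAP) and *FAR1* (17.5, 12.3 and 24.5 against 77.8, 96.4 and 126 CPM) had already started and were partway. *FACT*, a caffeoyl transferase for fatty alcohols, was also listed at 0 in the 6 earlier and colder libraries. At 13 DAP it held 15.7, 27.9 and 327 CPM. A single library carried most of that level, and the mean it set gave a bound of at least 1870-fold lower in the cold. The bounds of *FAR4* and *FACT* hold only if a listed 0 stands for 3 counts or fewer. This may fail, since *CCR2* was listed at 0 in a single cold library beside 0.720 and 1.85 CPM in the others. *ASFT*, the feruloyl transferase of suberin, was by contrast high in every library, at 616, 502 and 648 CPM in the cold against 1120, 1360 and 1450 CPM at 13 DAP (log2 fold change -1.16, SE 0.18, adjusted p = 0.0008). *LACS2* (acyl-CoA synthetase, -2.55), *KCS20* (elongase subunit, -1.98), *ABCG2* (a transporter, -1.49) and *CASPL1D2* (-1.80) completed the 12. *CASPL1D2* lost its call without 48 h cold replicate 1 (log2 fold change -1.68, adjusted p = 0.05). The median over all 22 genes was -1.64, or -1.32 with genes listed at 0 set to their bound, beside 0 over all genes. A total of 5 members were called lower where every library had to hold 10 counts, a filter that removes most genes absent at 11 DAP.

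Of the 5 laccases, oxidases that polymerise monolignols, 1 was called higher than at 13 DAP and 4 were not called. *LAC12* was 1 of the 5 genes called past the 13 DAP level: 0.891, 1.43 and 4.52 CPM at 11 DAP, 76.6, 45.5 and 89.9 CPM in 48 h cold and 13.9, 32.2 and 21.3 CPM at 13 DAP. All 3 cold libraries were above all 13 DAP libraries, with a log2 fold change of 1.64 (SE 0.42, adjusted p = 0.019). The call was lost without 48 h cold replicate 1 (adjusted p = 0.062), 48 h cold replicate 3 (0.07) or WT 13 DAP replicate 3 (0.072). *LAC3* held 109, 49.7 and 136 CPM in the cold and 63.2, 130 and 130 CPM at 13 DAP, from 0.251, 0.0782 and 2.12 CPM at 11 DAP, and was not called between cold and 13 DAP (log2 fold change -0.14, SE 0.67). *LAC5* (-0.71, SE 0.29), *LAC16* (-0.26, SE 0.53), the transporter *ABCG6* (-0.83, SE 0.32) and *CASPL1C1* (-0.59, SE 0.52) were not called against 13 DAP either, although each was called higher in the cold than at 11 DAP. *LAC1*, the other laccase, was listed at 0 in all cold libraries and held at most 0.145 CPM at 13 DAP. The difference between these genes and the 12 behind genes was not itself tested.

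Of 6 suberin-related MYB factors with a count, 2 were called lower. *MYB9* held 0.514, 0.756 and 3.07 CPM at 11 DAP, 27.5, 18.3 and 48.0 CPM in the cold and 90.0, 118 and 113 CPM at 13 DAP (log2 fold change -1.78, SE 0.55, adjusted p = 0.046). Its call was lost when any 1 of 5 libraries was left out. These were WT 11 DAP replicate 2 (adjusted p = 0.056), 48 h cold replicates 1 (0.14) and 2 (0.18), and WT 13 DAP replicates 2 and 3 (0.1 each). *MYB53*, at most 0.433 CPM in the cold and 1.52 to 3.07 CPM at 13 DAP, was the other. *MYB107* itself stood at 60.1, 50.8 and 41.8 CPM in the cold and 36.1, 36.9 and 51.4 CPM at 13 DAP and was not called (log2 fold change 0.29, SE 0.19, adjusted p = 0.38).

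**Figure D4:**
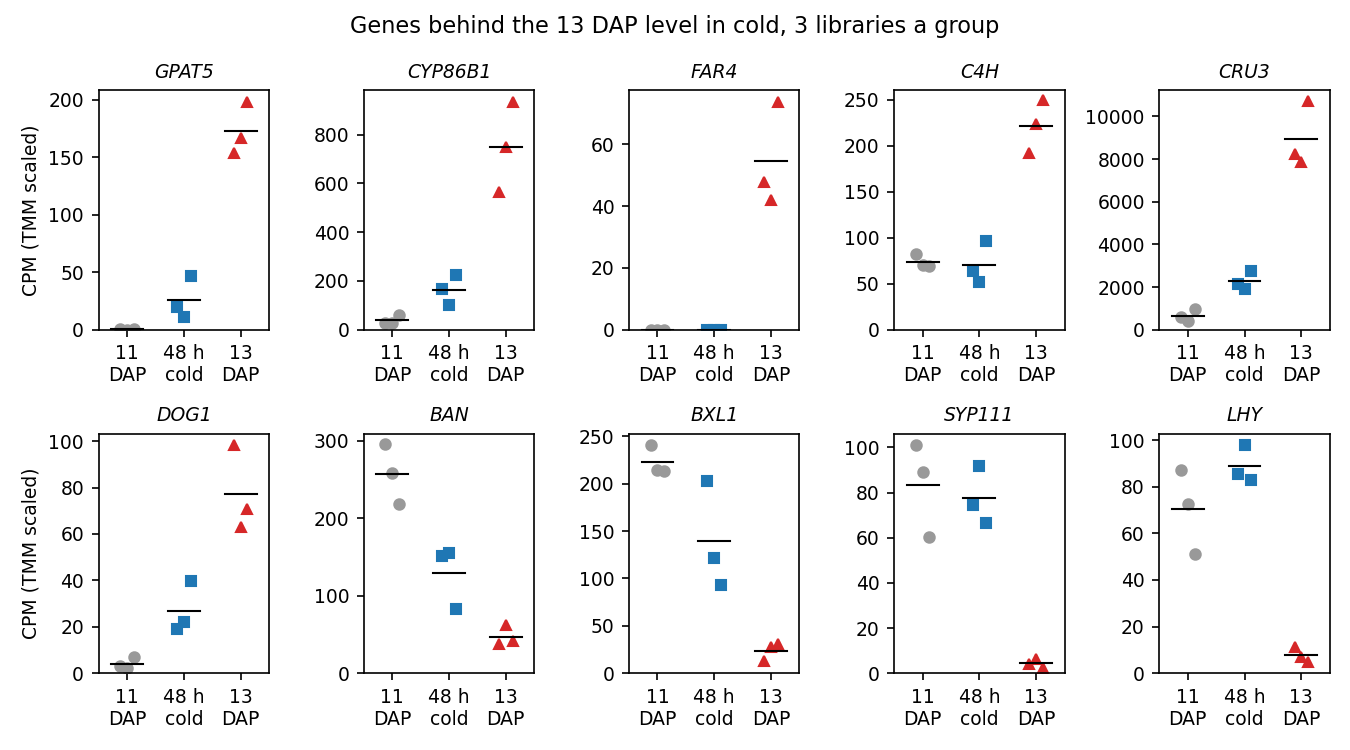
Each panel shows TMM-scaled CPM of a gene in the 3 libraries of WT 11 DAP (circles), 48 h cold (squares) and 13 DAP (triangles), with a line at the group mean and a linear axis from 0. *GPAT5*, *CYP86B1*, *CRU3* and *DOG1* lie partway in the cold, *FAR4* and *C4H* near their 11 DAP level, and *BAN*, *BXL1*, *SYP111* (also *KN*) and *LHY* above their 13 DAP level.

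The phenylpropanoid and monolignol enzymes, which feed both lignin and the aromatic part of suberin, were behind in 10 of 19 cases, with 0 called higher and a median log2 fold change of -1.0. *C4H*, cinnamate hydroxylase, the entry cytochrome P450 of the pathway, held 82.7, 70.2 and 69.2 CPM at 11 DAP, 63.5, 51.6 and 96.2 CPM in the cold and 192, 223 and 250 CPM at 13 DAP. Its cold and 11 DAP libraries overlapped while all were below the 13 DAP libraries (log2 fold change -1.66, SE 0.20, adjusted p = 0.00012). *CCR2*, a cinnamoyl-CoA reductase of the monolignol branch, held 0.720, 0 and 1.85 CPM in the cold against 27.4, 17.9 and 22.0 CPM at 13 DAP (log2 fold change -4.95, SE 0.65, adjusted p = 0.00023). *CCR1*, the other reductase, at 267, 303 and 289 against 335, 249 and 296 CPM, was not called (-0.03, SE 0.14). *4CL1* (-1.55), *4CL2* (-1.42), *CYP98A3* (-1.57) and *FAH1* (-1.94) were lower too. The remaining calls, *PAL1* (-1.11), *PAL2* (-1.0), *PAL4* (-1.48) and *HCT* (-1.02), lost their calls when single libraries were left out, and 6 genes of the list were called without WT 13 DAP replicate 3. *PAL4* lost its call without any of 7 libraries (adjusted p from 0.052 to 0.16). The call of *PAL1* was lost without 48 h cold replicate 1 (0.069), 48 h cold replicate 2 (log2 fold change -0.88) or WT 13 DAP replicate 3 (0.05). That of *PAL2* was lost without 48 h cold replicate 1 (log2 fold change -0.96), 48 h cold replicate 2 (-0.96) or WT 13 DAP replicate 3 (-0.97). *HCT* fell under the minimum without WT 13 DAP replicate 2 or 3 (log2 fold change -0.99 each).

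Seed filling was behind in the same sense. Of 15 storage and oil body protein genes, 14 were called higher at 13 than at 11 DAP (background 5.22%). In 48 h cold 13 were lower than at 13 DAP (background 4.1%), and the median log2 fold change was -1.54. *CRU3*, a 12S globulin, held 573, 393 and 989 CPM at 11 DAP, 2150, 1920 and 2730 CPM in the cold and 8260, 7850 and 10700 CPM at 13 DAP. The groups did not overlap, and the log2 fold change was -1.98 (SE 0.34, adjusted p = 0.0015). *SESA5*, a 2S albumin, held 235, 214 and 419 CPM in the cold against 1450, 947 and 1230 CPM at 13 DAP (-2.06, SE 0.29, adjusted p = 0.00037). Another albumin, *SESA3*, at 22600, 19900 and 30700 CPM in the cold and 74300, 51100 and 55200 CPM at 13 DAP, was not called (log2 fold change -1.30, SE 0.51, adjusted p = 0.12) although its libraries did not overlap either. In all, the 15 genes made up 49500 to 77000 CPM in the cold and 143000 to 205000 CPM at 13 DAP.

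The oleosins coat oil bodies, and 4 of them were called lower. *AT2G25890*, an oleosin family gene outside the list and named after its values were seen, was outside above, at 11.6, 6.0 and 6.78 CPM at 11 DAP and 24.1, 19.7 and 31.6 CPM in the cold, and was listed at 0 in all 3 libraries at 13 DAP. *OLEO1* held 2230, 1870 and 2500 CPM at 11 DAP, 2330, 1990 and 2520 CPM in the cold and 6740, 5540 and 6000 CPM at 13 DAP (-1.42, SE 0.24, adjusted p = 0.0012). *OLEO3* was the single list member outside the range: 528, 506 and 505 CPM at 11 DAP, 243, 210 and 282 CPM in the cold and 679, 535 and 476 CPM at 13 DAP, a log2 fold change of -1.20 from 13 DAP (SE 0.18) and -1.07 from 11 DAP. All 3 of its cold libraries lay below all 6 warm libraries. Leaving out 1 library kept 9 to 13 of the 13 calls. *OLEO2* fell under the fold minimum without 48 h cold replicate 2 (-0.94) or WT 13 DAP replicate 1 (-0.90) and *OLEO4* without 48 h cold replicate 2 (-1.0). *SESA4* lost its call without 48 h cold replicate 1 (adjusted p = 0.1) or 2 (0.12). *SESA2* lost it without WT 11 DAP replicate 1 (0.058), 48 h cold replicate 1 (0.11) or 2 (0.14), or WT 13 DAP replicate 3 (0.055).

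Promoters of 3 storage genes are shown because cores of seed promoter elements were counted over the classes. The 250 bases before the annotated start, read from TAIR10.1, were searched on both strands for ACGTG, the core of the abscisic acid response element, and CATGCA, the core of the RY element bound by seed B3 factors. ACGTG was found in 35.1% of 689 promoters of behind lower genes and in 23.5% of 22226 promoters of all protein-coding genes tested, and CATGCA in 16.0% and 8.07%. With the 150 bases before the start, the shares were 26.3% and 17.3% for ACGTG and 11.3% and 4.71% for CATGCA. The behind higher genes held ACGTG in 24.2% and CATGCA in 12.1% of 563 promoters. Below, capitals mark every match to either core on either strand, and where matches overlap, as in CACGTG, which holds ACGTG on both strands, the run of capitals is longer. *CRU3* (chr4:14087306-14087555, plus strand) held ACGTG 3 times and CATGCA once, *SESA5* (chr5:22239188-22239437, minus strand) held a CACGTG and 4 matches to CATGCA, and *OLEO1* (chr4:12900180-12900429, plus strand) held 5 matches to ACGTG and 3 to CATGCA. A match describes the letters and is not a site shown to be bound.
CRU3: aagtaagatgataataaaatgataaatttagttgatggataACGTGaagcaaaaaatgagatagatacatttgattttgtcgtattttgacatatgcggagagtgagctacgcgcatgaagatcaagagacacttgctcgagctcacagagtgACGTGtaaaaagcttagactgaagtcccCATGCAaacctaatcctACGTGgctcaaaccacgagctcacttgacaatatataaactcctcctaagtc
SESA5: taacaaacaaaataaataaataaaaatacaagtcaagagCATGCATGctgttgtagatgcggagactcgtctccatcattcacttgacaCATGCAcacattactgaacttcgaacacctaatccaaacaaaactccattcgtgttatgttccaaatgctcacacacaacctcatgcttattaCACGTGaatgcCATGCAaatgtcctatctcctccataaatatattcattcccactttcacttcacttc
OLEO1: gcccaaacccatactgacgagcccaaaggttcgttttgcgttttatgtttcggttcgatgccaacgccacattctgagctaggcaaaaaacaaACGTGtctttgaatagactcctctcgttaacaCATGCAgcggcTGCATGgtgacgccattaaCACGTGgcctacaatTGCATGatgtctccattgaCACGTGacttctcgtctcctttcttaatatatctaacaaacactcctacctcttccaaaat

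Regulators of maturation and dormancy were mixed, with 3 of 12 called lower and 1 higher. *ABI3*, the B3 factor that activates storage genes, held 32.3, 45.9 and 45.9 CPM at 11 DAP, 40.0, 51.6 and 44.8 CPM in the cold and 134, 114 and 159 CPM at 13 DAP. Its cold and 11 DAP libraries overlapped and both lay below the 13 DAP libraries (log2 fold change -1.58, SE 0.19, adjusted p = 0.00011). *DOG1*, the main dormancy gene, was partway, with 3.11, 2.06 and 6.94 CPM, then 19.1, 22.0 and 39.8 CPM in the cold and 98.3, 63.2 and 70.8 CPM at 13 DAP (-1.53, SE 0.36, adjusted p = 0.011). The call was lost without 48 h cold replicate 1 (adjusted p = 0.051) or 2 (0.052). *ABI4*, at or below 0.125 CPM in the cold and 0.16 to 1.47 CPM at 13 DAP, was the other lower call. It was lost without any 1 cold library (adjusted p from 0.078 to 0.094) or WT 13 DAP replicate 3 (0.23). Without 48 h cold replicate 1 or 2, a single gene of the list was called lower. *LEC1*, an early embryonic regulator, was higher in the cold, at 36.2, 39.3 and 28.4 against 14.2, 15.7 and 7.08 CPM (1.5, SE 0.25, adjusted p = 0.0012). *FUS3*, another B3 factor of maturation, at 128, 153 and 158 CPM in the cold and 209, 158 and 166 CPM at 13 DAP, was not called (-0.28, SE 0.15). Of 9 late embryogenesis abundant protein genes with a count, *RAB18*, a dehydrin, was lower (8.47, 8.46 and 8.16 CPM against 17.4, 28.2 and 47.4 CPM, -1.90, SE 0.32, adjusted p = 0.0012). *XERO1*, another dehydrin, was higher by 1.04 (SE 0.31, adjusted p = 0.04), a call lost without any 1 of 8 of the 9 libraries (adjusted p from 0.051 to 0.16).

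Genes of the earlier seed coat phase differed in the other direction. Of 18 flavonoid and proanthocyanidin genes, 7 were higher in 48 h cold than at 13 DAP and 0 lower (median log2 fold change 0.71), and 6 of the 7 were behind, with *TT7*, flavonoid hydroxylase, unresolved (1.23). *BAN*, the anthocyanidin reductase of proanthocyanidin synthesis, held 296, 258 and 219 CPM at 11 DAP, 151, 155 and 82.6 CPM in the cold and 37.8, 62.3 and 41.0 CPM at 13 DAP. No groups overlapped (1.46, SE 0.24, adjusted p = 0.0012). *LDOX*, the dioxygenase just before it, held 14.8, 16.0 and 14.2 CPM in the cold against 2.94, 3.68 and 2.23 CPM (2.35, SE 0.24, adjusted p = 3.4e-05). *DFR* (1.31), the transport factor *GSTF12* (2.05) and the regulators *TT1* (3.43) and *TT16* (2.03) were higher too. *TT16* lost its call without 48 h cold replicate 1 (adjusted p = 0.11) or WT 13 DAP replicate 3 (0.063). Unlike *TT7*, the early enzymes *TT4*, *TT5* and *F3H* were not called. *TT4*, chalcone synthase, stood at 356, 433 and 459 CPM in the cold and 1100, 633 and 576 CPM at 13 DAP, with a log2 fold change of -0.89 (SE 0.23), under the minimum. *TT5*, chalcone isomerase, had 0.76 (SE 0.37) and *F3H*, flavanone hydroxylase, 0.67 (SE 0.29).

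Of 20 mucilage genes, 10 were called lower at 13 than at 11 DAP (background 5.52%). In 48 h cold 5 were higher than at 13 DAP (background 3.83%), all 5 behind and none called from 11 DAP. *BXL1*, a wall xylosidase and arabinosidase needed for mucilage release, held 241, 214 and 213 CPM at 11 DAP, 203, 122 and 92.8 CPM in the cold and 13.3, 27.4 and 30.7 CPM at 13 DAP (2.54, SE 0.30, adjusted p = 0.00011). *PRX36*, a peroxidase of the outer wall, held 22.8, 20.2 and 18.4 CPM against 1.76, 3.63 and 2.28 CPM (2.97, SE 0.29, adjusted p = 2.8e-05). *MUM2* (1.43), *PMEI6* (1.80) and *MYB61* (1.16) were the others. *MYB61* fell under the fold minimum without 48 h cold replicate 2 (0.94). Other members were called lower in the cold than at 11 DAP. *GATL5*, a galacturonosyltransferase-like gene, went from 275, 269 and 147 CPM to 36.4, 24.2 and 12.9 CPM, beside 11.5, 19.7 and 17.7 CPM at 13 DAP. *MUM4*, a rhamnose synthase, went from 242, 271 and 179 CPM to 85.5, 76.8 and 70.9 CPM, beside 62.6, 82.1 and 90.6 CPM. Neither was called between cold and 13 DAP (log2 fold changes 0.58, SE 0.35, and -0.01, SE 0.23).

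Cell division genes were behind in 1 of 8 cases. *KN*, also named *SYP111*, the syntaxin of the cell plate, held 101, 88.9 and 60.2 CPM at 11 DAP, 74.7, 91.7 and 66.5 CPM in the cold and 4.25, 6.48 and 2.33 CPM at 13 DAP (4.17, SE 0.33, adjusted p = 7e-06). The cold and 11 DAP libraries overlapped, at 17.9 times the mean 13 DAP level in the cold. The cyclins and cyclin-dependent kinases of the list gave no such call: *CYCB1;1* held 0.642, 1.13 and 0.572 CPM in the cold against 0.0959, 0.432 and 0.304 CPM at 13 DAP, from 2.5, 3.4 and 1.80 CPM at 11 DAP (1.40, SE 0.59, adjusted p = 0.15). Of 10 photosystem and Rubisco genes, *PSBO2*, an oxygen-evolving complex subunit, was higher in the cold (19.4, 19.5 and 18.9 CPM against 4.73, 7.44 and 5.44 CPM, 1.7, SE 0.27, adjusted p = 0.00093). *RBCS3B* was higher too (3.06), near the floor, at 1.11, 0.98 and 0.506 CPM in the cold and 0, 0.294 and 0 CPM at 13 DAP. It shares 16.5% of its 50-base exon stretches with other genes, and it lost its call without 48 h cold replicate 1 (adjusted p = 0.083) or 2 (0.073) or WT 13 DAP replicate 1 (0.089) or 3 (0.14). Among 12 genes of sugar transport and raffinose synthesis, *STS*, stachyose synthase, was lower (6.15, 5.67 and 4.05 CPM against 28.8, 26.7 and 32.0 CPM, -2.45, SE 0.24, adjusted p = 2.8e-05). Its 11 DAP libraries held 8.85, 12.7 and 8.46 CPM. All cold libraries of *STS* lay below these as well, by less than the fold minimum (log2 -0.9). The sucrose exporter *SWEET12* was higher (1.23, SE 0.27), a call that leaving out 48 h cold replicate 1 (0.95) or WT 13 DAP replicate 1 (1.0) took under the minimum.

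Of 20 CBF factors and cold-regulated genes, 3 were higher, 2 lower and 15 not called (median log2 fold change 0.61). Without WT 13 DAP replicate 1, 5 were called higher. *ZAT12*, a zinc finger factor of stress responses, held 506, 510 and 643 CPM in the cold, 319, 191 and 156 CPM at 13 DAP and 288, 204 and 202 CPM at 11 DAP (1.32, SE 0.26, adjusted p = 0.0043). *BAM3*, a chloroplast beta-amylase, held 142, 130 and 93.3 CPM against 40.7, 46.1 and 29.9 CPM (1.65, SE 0.30, adjusted p = 0.002). Both were outside above. *RAV1*, an AP2/B3 factor, was higher by 2.53 (SE 0.31) and behind. *CBF1* at 18.5, 22.4 and 21.2 CPM in the cold and 17.9, 8.00 and 5.75 CPM at 13 DAP was not called (1.01, SE 0.32, adjusted p = 0.056), nor was *CBF2* (0.11, SE 0.30). *COR15A* was at or near 0 in all 9 libraries. *COR78*, a dehydration and cold response gene, was at 4.19, 5.16 and 2.68 CPM in the cold against 6.23, 5.68 and 4.74 CPM (-0.43, SE 0.24). *KIN1* and *KIN2*, small proteins named for their induction by cold, were the 2 lower genes. *KIN1* was listed at 0 in all 11 DAP libraries and held 0.288, 1.32 and 6.20 CPM in the cold and 640, 421 and 375 CPM at 13 DAP (-7.67, SE 0.77, adjusted p = 7.9e-05). *KIN2*, its neighbour on chromosome 5, held 3.72, 9.78 and 55.8 CPM in the cold and 1060, 892 and 777 CPM at 13 DAP (-5.32, SE 0.81, adjusted p = 0.00067). For both, the level in warm 13 DAP seeds was far above that in the cold. The *myb107-2* libraries, scaled apart from the WT libraries, went from 0.633, 1.66 and 0.957 CPM of *KIN2* at 11 DAP to 280, 85.1 and 306 CPM in 48 h cold. A rise in the mutant was not particular to *KIN2*. Of 674 behind lower genes tested there, 248 (36.8%) were called higher after 48 h in the cold than at 11 DAP, against 4.42% of all genes.

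The *KIN1* promoter is shown because the gene is named for cold and CCGAC, the core of the element bound by CBF factors, was searched in it on both strands. The 250 bases (chr5:5209467-5209716, plus strand, TAIR10.1) held no CCGAC on either strand and 1 ACGTG, on the other strand with its first base 150 bases before the start, in capitals here. Over all promoters of tested protein-coding genes CCGAC was found in 12.6%, over behind lower genes in 10.6%, outside above in 15.3% of 150 and outside below in 18.6% of 113.
KIN1: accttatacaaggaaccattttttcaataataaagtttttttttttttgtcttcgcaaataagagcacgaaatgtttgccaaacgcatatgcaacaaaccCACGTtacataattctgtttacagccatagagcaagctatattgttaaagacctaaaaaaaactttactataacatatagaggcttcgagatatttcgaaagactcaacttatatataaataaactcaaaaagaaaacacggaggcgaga

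Of 12 clock genes 3 were higher in the cold, and the hour of harvest is not given in the sources used here. *LHY* and *CCA1*, morning MYB factors of the clock, were higher in 48 h cold: *LHY* held 85.4, 98.0 and 82.9 CPM against 11.1, 6.89 and 4.86 CPM at 13 DAP, from 87.1, 72.7 and 51.0 CPM at 11 DAP (3.58, SE 0.29, adjusted p = 8.8e-06). *CCA1* held 60.6, 61.3 and 39.5 CPM against 7.48, 5.94 and 4.22 CPM (3.22, SE 0.31, adjusted p = 2.7e-05). *PRR9*, another morning gene, was outside above at 23.8, 23.6 and 17.3 CPM against 5.34, 7.44 and 5.33 CPM (1.84, SE 0.29), with 41.1% of its 50-base exon stretches found elsewhere in the genome. None of the other 9 clock genes was called. *LUX*, an evening gene, held 21.6, 20.9 and 16.4 CPM against 36.4, 37.2 and 41.7 CPM (-0.97, SE 0.16), just under the fold minimum. *FKF1* held 6.89, 8.35 and 6.73 CPM against 17.4, 17.2 and 17 CPM (-1.23, SE 0.39, adjusted p = 0.053). The remaining values were -0.56 (SE 0.30) for *PRR5*, -0.53 (SE 0.33) for *ELF4*, -0.42 (SE 0.21) for *TOC1* and -0.32 (SE 0.19) for *ELF3*. *PRR7* had -0.15 (SE 0.23), *GI* -0.09 (SE 0.21) and *RVE8* 0.10 (SE 0.21). Whether the groups were harvested at different hours of the day was not tested.

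Among 12 genes of abscisic acid (ABA) metabolism, *NCED3*, a rate-limiting dioxygenase of ABA synthesis, was outside above, with 11.3, 6.93 and 3.97 CPM at 11 DAP, 17.3, 15.5 and 16.0 CPM in the cold and 4.80, 5.15 and 4.28 CPM at 13 DAP (1.78, SE 0.30, adjusted p = 0.0012). *CYP707A2*, an ABA 8′-hydroxylase that breaks the hormone down, was behind at 0.602, 0.456 and 0.748 CPM in the cold and 6.17, 4.56 and 6.48 CPM at 13 DAP (-3.30, SE 0.53, adjusted p = 0.00097). *NCED6*, the endosperm enzyme, held 134, 115 and 120 CPM against 59.7, 83.4 and 86.4 CPM (0.68, SE 0.16), under the fold minimum. *AAO3*, the last enzyme of synthesis, was lower by -1.28 (SE 0.36, adjusted p = 0.032), a call lost without any 1 cold library (adjusted p from 0.051 to 0.1) or WT 13 DAP replicate 2 (0.083) or 3 (0.11). Of 8 gibberellin genes, *GA2OX6*, which inactivates gibberellin, was the single call (1.68, 1.66 and 2.44 CPM against 0, 0.173 and 0.202 CPM, 3.64, SE 0.75, adjusted p = 0.0039).

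Some genes that rose with age also rose in the cold and were not called from 13 DAP. Of 12 seed coat cell death proteases and nucleases, 7 were called higher at 13 than at 11 DAP (background 5.22%). In 48 h cold, 5 were called higher than at 11 DAP (background 2.8%). Between cold and 13 DAP 0 were called, beside 7.93% of all genes called in either direction. An unadjusted edgeR p under 0.05 was reached there by 7 of the 12, so the lack of a call does not show equal levels. *BFN1*, a nuclease of cell death, held 42.1, 32.1 and 43.8 CPM at 11 DAP, 120, 117 and 158 CPM in the cold and 121, 94.7 and 90.8 CPM at 13 DAP (0.37, SE 0.17, adjusted p = 0.19). *NYE1* and *NYE2*, regulators of chlorophyll breakdown, were likewise called higher in the cold than at 11 DAP and not called against 13 DAP, with log2 fold changes of -0.11 (SE 0.26) and -0.10 (SE 0.23). Without 48 h cold replicate 3, 3 of the cell death genes were called lower in the cold. Of 12 heat shock genes, 1 was called lower in the cold, *HSP22.0*, at 0 to 0.223 CPM against 0.256 to 3.25 CPM. Without WT 13 DAP replicate 1, 4 heat shock genes were called lower, and 0 without 48 h cold replicate 2 or WT 13 DAP replicate 3. Of 10 ribosome biogenesis factors, *FIB2*, a fibrillarin, was higher by 1.07 (SE 0.17, adjusted p = 0.0008) and under the minimum without 48 h cold replicate 1 (0.95) or WT 13 DAP replicate 2 (0.94). Of 9 endosperm markers, *ZOU* (1.01), *ICE1* (1.01) and *MEA* (2.57) were called higher in 48 h cold and 0 lower. None of the 3 kept its call without WT 11 DAP replicate 2, 48 h cold replicate 2 or WT 13 DAP replicate 3. Without these libraries in turn, *ZOU* had log2 fold changes of 0.99, 0.87 and 0.97 and *ICE1* of 0.99, 0.93 and 0.93. *MEA* had an adjusted p of 0.051, 0.1 and 0.08. The summed level of the endosperm markers, mostly *EPR1*, went the other way. It was 13700 to 21600 CPM in 48 h cold and 25500 to 29200 CPM at 13 DAP. Whether endosperm content had a part in other results was not tested.

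Among behind genes, those with the smallest p-values had varied known roles. *NPC4*, a phospholipase C, held 3.82, 3.75 and 5.33 CPM at 11 DAP, 3.18, 2.61 and 6.07 CPM in the cold and 152, 121 and 154 CPM at 13 DAP (-5.21, SE 0.30, adjusted p = 6.4e-07). *DOX1*, a fatty acid dioxygenase, held 6.46, 4.97 and 6.73 CPM in the cold against 79.4, 79.6 and 117 CPM (-3.93, SE 0.25, adjusted p = 1.7e-06). *SEH*, a soluble epoxide hydrolase with 12.3% of its exon stretches found elsewhere, held 30.9, 30.9 and 36.8 CPM, then 18.5, 16.5 and 18.3 CPM in the cold and 93.5, 103 and 112 CPM at 13 DAP (-2.54, SE 0.13, adjusted p = 3.1e-07). All 3 cold libraries of *SEH* lay below the 11 DAP libraries as well, by less than the fold minimum (log2 -0.89). *AT2G47200*, a protein of unknown function, went from at most 0.16 CPM at 11 DAP to 0.759, 1.47 and 2.95 CPM in the cold and 167, 122 and 111 CPM at 13 DAP (-6.36, SE 0.43). *AT1G75280*, an NmrA-like reductase family gene, held 10.5, 9.68 and 9.57 CPM against 107, 86.2 and 79.8 CPM (-3.20, SE 0.18). *AT3G60730*, an invertase and pectin methylesterase inhibitor family gene, stood at 0.286, 0.209 and 0.352 CPM, 1.40, 2.51 and 7.37 CPM in the cold and 509, 314 and 403 CPM at 13 DAP (-6.84, SE 0.49, adjusted p = 1.7e-06). Its 250 bases before the start (chr3:22444640-22444889, plus strand, TAIR10.1), shown for comparison with the storage genes, held a CACGTG and 1 CATGCA on the other strand, in capitals.
AT3G60730: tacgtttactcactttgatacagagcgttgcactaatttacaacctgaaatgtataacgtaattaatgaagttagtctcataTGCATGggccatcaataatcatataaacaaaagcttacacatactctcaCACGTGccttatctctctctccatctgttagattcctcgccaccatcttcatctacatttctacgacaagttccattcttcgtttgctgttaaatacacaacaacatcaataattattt

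On the falling side, *RGP3*, a UDP-arabinose mutase family protein of wall synthesis, held 88.8, 92.7 and 60.8 CPM at 11 DAP, 32.0, 29.3 and 25.3 CPM in the cold and 1.15, 2.61 and 2.40 CPM at 13 DAP (3.75, SE 0.25, adjusted p = 2.7e-06). *KCS3*, a ketoacyl-CoA synthase of the fatty acid elongation family, followed the same order, with 20.8, 18.6 and 17.2 CPM, 7.14, 5.44 and 5.61 CPM and 0.224, 0.674 and 0.607 CPM (3.47, SE 0.27). Both were partway, with 3 groups that did not overlap. *NSP1*, a nitrile specifier of glucosinolate breakdown with 27.5% of its exon stretches found elsewhere, stayed up at 29.1, 40.1 and 28.9 CPM in the cold against 4.00, 4.21 and 3.87 CPM at 13 DAP (3.02, SE 0.21). *AT1G78060*, a glycosyl hydrolase family gene, was at 10.9, 11.9 and 9.10 against 1.41, 1.71 and 1.71 CPM (2.71, SE 0.20).

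The 275 genes outside the 11 to 13 DAP range lay beyond both warm levels. No warm library was read between these ages, so a gene with a peak or a dip in between cannot be told apart from one that cold moved out of the warm course. Of the 156 above, 132 had no call for age and 19 were called lower at 13 than at 11 DAP. The other 5 rose with age and had passed the 13 DAP level. The median log2 fold change of the 156 was 1.76 from 13 DAP and 1.45 from 11 DAP. Of the 119 below, 98 had no call for age and 13 were called higher at 13 than at 11 DAP. The other 8 fell with age and had passed the 13 DAP level. The medians of the 119 were -2.22 and -2.18. Both differences entered the definition and are given as a description.

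The cold transfer of *myb107-2* offered libraries that no class had used, and this reading was added after the WT results were seen. Of the 156 genes above the range, 92 (59.0%) were called higher in *myb107-2* after 48 h in the cold than at 11 DAP and 0 lower, against 4.42% of 24576 genes called higher overall and 8.59% called in either direction. Of 118 tested genes below the range, 62 (52.5%) were called lower and 1 higher, against 4.17% called lower overall. The share was higher still among partway behind genes, of which 136 of 163 lower ones (83.4%) were called higher and 97 of 111 higher ones (87.4%) lower, so such movement in the mutant was not particular to genes outside the range. Among the 19 genes above the range against the direction of age, 7 (36.8%) were called higher. The mutant lacks MYB107 and no 13 DAP libraries of it were read, so these counts bear on the difference from 11 DAP and not on that from 13 DAP.

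**Figure D5:**
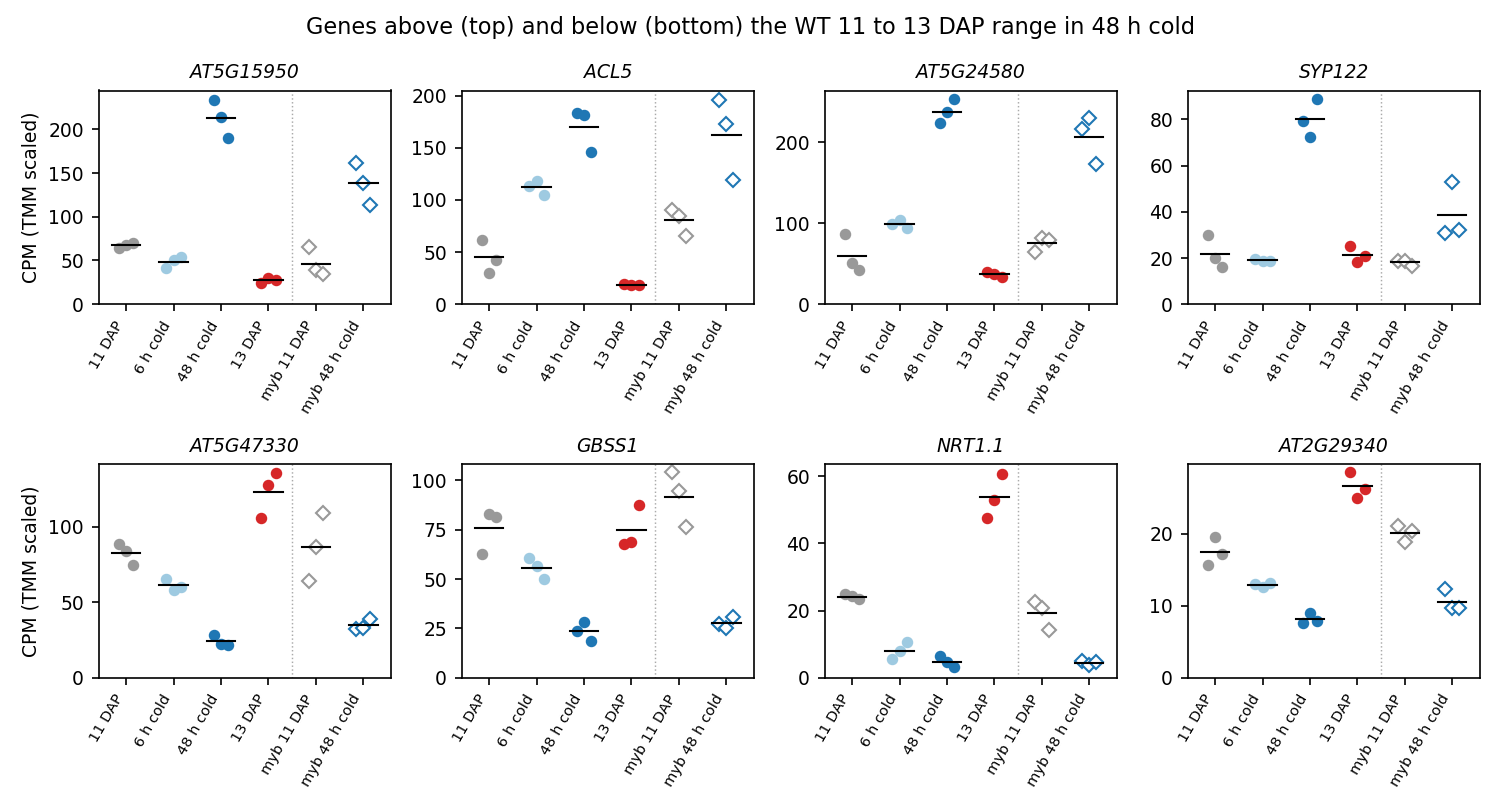
Each panel shows TMM-scaled CPM of a gene in 3 libraries a group with a line at the group mean, on a linear axis from 0; filled circles are WT at 11 DAP, after 6 h and 48 h in the cold and at 13 DAP, and open diamonds, right of the dotted line, are *myb107-2* (myb) at 11 DAP and after 48 h in the cold. In the top row the 48 h cold libraries of WT lie above all WT libraries at 11 and 13 DAP, and in the bottom row below them. CPM of WT and of *myb107-2* were scaled separately.

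Of the genes above the range with the smallest p-values, a pair act in polyamine synthesis. *AT5G15950*, an S-adenosylmethionine decarboxylase family gene (chr5:5205869-5208036), held 64.7, 67.2 and 70.0 CPM at 11 DAP, 234, 214 and 190 CPM in 48 h cold and 24.8, 30.5 and 28 CPM at 13 DAP. The 3 groups did not overlap. The gene was lower at 13 than at 11 DAP and higher in 48 h cold than at either (2.94 from 13 DAP, SE 0.14, adjusted p = 2e-07, and 1.66 from 11 DAP, SE 0.14, adjusted p = 2.8e-05). After 6 h it stood at 41.9, 50.8 and 53.5 CPM, below the 11 DAP libraries. In *myb107-2* it went from 65.5, 38.9 and 34.9 CPM to 162, 139 and 114 CPM (1.57, SE 0.22, adjusted p = 0.0003). *ACL5*, thermospermine synthase, which uses the product of that decarboxylase, held 61.6, 30.3 and 42.5 CPM at 11 DAP, 183, 181 and 146 CPM in the cold and 19.5, 18.4 and 18.2 CPM at 13 DAP (3.19, SE 0.22, adjusted p = 2.7e-06). Unlike *AT5G15950* it was already at 113, 118 and 105 CPM after 6 h. *AT5G24580*, a heavy metal transport and detoxification family gene, held 86.8, 50.9 and 42.6 CPM, then 224, 237 and 253 CPM in the cold and 39.7, 37.8 and 33.8 CPM at 13 DAP (2.68, SE 0.22, adjusted p = 8.2e-06). *SYP122*, a plasma membrane syntaxin known from defence, held 29.9, 19.8 and 15.9 CPM, then 79.5, 72.4 and 88.9 CPM and 25.1, 18.2 and 20.8 CPM (1.91, SE 0.21, adjusted p = 5e-05). Its 6 h libraries, at 18.5 to 19.7 CPM, lay within the 11 DAP range.

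Promoters of *AT5G15950* (chr5:5205619-5205868, plus strand) and *SYP122* (chr3:19427231-19427480, minus strand) are shown because each held a CCGAC within the 250 bases before the start (TAIR10.1), as did 15.3% of promoters above the range and 12.6% of all. Capitals mark CCGAC or ACGTG on either strand. *AT5G15950* held CCGAC on the other strand, first base 73 bases before the start, and *SYP122* held it on its own strand at 216 bases, with ACGTG at 120 and 66 bases. ACGTG was found in 32.7% of the 150 promoters above the range and 23.0% of the 113 below it, against 23.5% of all, and AAAATATCT, the evening element, in 5.33% and 1.77% against 2.49%.
AT5G15950: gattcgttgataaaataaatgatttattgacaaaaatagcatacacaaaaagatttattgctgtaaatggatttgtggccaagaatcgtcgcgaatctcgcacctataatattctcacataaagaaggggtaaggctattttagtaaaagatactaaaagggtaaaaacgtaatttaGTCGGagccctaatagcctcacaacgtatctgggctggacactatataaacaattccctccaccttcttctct
SYP122: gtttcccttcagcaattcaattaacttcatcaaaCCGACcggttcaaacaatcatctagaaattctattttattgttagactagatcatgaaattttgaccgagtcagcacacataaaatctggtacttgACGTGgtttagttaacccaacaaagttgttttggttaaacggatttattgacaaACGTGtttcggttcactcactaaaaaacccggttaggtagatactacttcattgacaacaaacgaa

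The 5 genes that passed the 13 DAP level upward were named after their values were seen: *LAC12*, described above, *AT1G76590* (a PLATZ factor), *HMT3* (a homocysteine methyltransferase), *AT4G08910* (annotated as a homeobox protein) and *AT4G26010* (a peroxidase). *AT4G26010* held 0.274, 0.169 and 0.365 CPM at 11 DAP, 10.6, 5.32 and 13.7 CPM in the cold and 1.76, 2.06 and 1.68 CPM at 13 DAP, a log2 fold change of 2.41. *HMT3* held 14.8, 11.6 and 11.0 CPM in the cold against 4.70, 5.20 and 5.71 CPM (1.25). Both kept their 3 groups apart.

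Below the range, *NRT1.1*, the dual affinity nitrate transporter and sensor, held 24.8, 24.3 and 23.4 CPM at 11 DAP, 6.42, 4.80 and 3.23 CPM in 48 h cold and 47.7, 53.1 and 60.8 CPM at 13 DAP. It was higher at 13 than at 11 DAP and lower in 48 h cold than at either, without overlap between groups (-3.47 from 13 DAP, SE 0.26, adjusted p = 4e-06, and -2.31 from 11 DAP, SE 0.25, adjusted p = 0.00011). It was at 5.48, 8.10 and 10.7 CPM after 6 h. In *myb107-2* it went from 22.7, 20.8 and 14.2 CPM to 4.92, 3.85 and 4.67 CPM (-2.11, SE 0.21, adjusted p = 2.9e-05). *GBSS1*, the starch synthase that makes amylose, held 62.6, 83.0 and 81.4 CPM, then 23.7, 28.2 and 18.5 CPM in the cold and 67.9, 69.0 and 87.3 CPM at 13 DAP (-1.67, SE 0.18, adjusted p = 4.7e-05), and 60.6, 56.4 and 49.8 CPM after 6 h. The 11 and 13 DAP libraries of *GBSS1* overlapped, and the cold libraries lay below both. *AT5G47330*, an alpha/beta hydrolase family gene, held 89.0, 83.7 and 75 CPM, 28.6, 22.3 and 21.5 CPM in the cold and 106, 128 and 136 CPM at 13 DAP (-2.35, SE 0.15, adjusted p = 1.7e-06). *AT2G29340*, an epimerase and dehydratase family gene, held 7.65, 8.97 and 7.92 CPM in the cold against 28.6, 24.9 and 26.2 CPM (-1.69, SE 0.14, adjusted p = 1e-05). In *myb107-2*, *GBSS1* and *AT5G47330* were called lower after 48 h in the cold (-1.73 and -1.31), while *AT2G29340*, with -0.94 (SE 0.15), did not reach the fold minimum.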

How the data were processed

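Dissected seed coats and endosperms of 18 libraries (TruSeq stranded mRNA) were sequenced. For every gene the authors deposited estimated counts, which are whole numbers and were not normalized, and the submitters' processing notes name HISAT2, StringTie and DESeq2. Versions, build, annotation and the strand setting of counting were not given in the sources used here. From these estimated counts, 22 genes whose symbols had become dates in 5 files were left out, as were rows without a nuclear gene identifier (0.454% to 2.133% of counts). Groups were taken from the sample labels. The 12 WT libraries in 4 groups (11 DAP, 6 h cold, 48 h cold and 13 DAP) were fitted together with edgeR 4.0.16 (quasi-likelihood test, TMM scaling) in R 4.3.3 over 26245 genes with at least 1 count. Calls combined Benjamini-Hochberg adjustment over all genes (limit 0.05) with a minimum size of 1 for log2 fold changes. The same test was run on *myb107-2* over 24576 genes. Its libraries were scaled in that separate fit, so CPM of WT and of *myb107-2* are not on a common scale. Folds against a group listed at 0 were computed from the mean of the other group against 3 counts in the shallowest library. They take a listed 0 to stand for 3 counts or fewer. Counts carry no molecular identifiers, so floors cover counting error only. The scripts were tested on simulated data.

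Named genes were the members of the gene lists, plus the 4 genes with the smallest p in each direction and in each class among those whose libraries did not overlap. The members, lists and tests were chosen with earlier results of these data known. Replicate numbers did not pair 48 h cold with 13 DAP libraries (correlations of deviations -0.23, 0.08 and -0.15), while they exceeded 0.1 for each pair of 11 and 13 DAP (0.20, 0.14 and 0.15). For 11 DAP and 48 h cold, same-number libraries gave 0.07, 0.18 and 0.12, and different numbers gave -0.13 to -0.02. The main fit did not use replicate number. Alternatives were DESeq2 1.42.0, other filters, a test against the fold minimum (glmTreat), a replicate block and leaving out each library. Gene positions and promoters came from the RefSeq annotation of TAIR10.1.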

Additional observations from a re-analysis of the deposited data

How the results depend on the processing

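Among the 96 named genes called, 41 kept the call in each of the 23 alternatives, 55 lost it in at least 1, and 0 reversed. Testing against the fold minimum (glmTreat) left 268 genes higher and 357 lower in 48 h cold than at 13 DAP, 701 and 582 with age, 200 and 160 from 11 DAP, 261 behind lower, 157 behind higher, 16 outside above, 14 outside below, 82 unresolved lower and 95 unresolved higher. Without a fold minimum the counts were 1772 and 1710, 2100 and 2382, 1315 and 1454, with 954 behind higher, 400 outside above, 263 outside below and 393 unresolved lower. DESeq2 placed 251 genes outside below, 115 of the 119 among them, and a minimum of 10 counts in every library left 456 behind lower. Leaving out 1 library gave 737 to 991 higher and 770 to 1152 lower, 1200 to 1413 and 1212 to 1438 with age, 502 to 730 and 530 to 862 from 11 DAP (530 without 48 h cold replicate 3), 551 to 753 behind lower, 430 to 608 behind higher, 100 to 182 outside above, 64 to 148 outside below, 155 to 312 unresolved lower and 180 to 321 unresolved higher. With a replicate block, 976 genes were higher and 984 lower in 48 h cold than at 13 DAP, 1306 and 1375 with age, and 715 and 776 from 11 DAP. The classes then held 667 behind lower, 532 behind higher, 165 outside above and 113 outside below genes. The cause of these differences was not tested, beyond the fold minimum and filter acting by construction.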
